A study of Rattus norvegicus with 12 samples.

Results

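The 49 genes described here encode the proteins that copy chromosomal DNA and supply its building blocks: origin licensing and helicase proteins, polymerases, the sliding clamp and its loader, single-strand binding and lagging-strand proteins, enzymes of deoxynucleotide synthesis, and 3 regulators of entry into S phase. They were taken by gene symbol from a list that was drawn up with earlier results of these data known. Each of the 49 symbols was found on 1 line of a table with 22384 named lines. All 49 passed the filter of a mean of at least 1 FPKM (a level that accounts for transcript length and for the size of the library) that left 11860 genes for testing, and 47 were at or above 1 FPKM in every library. The cells were rat hepatic progenitor cells (HPCs), labelled as day 13.5 of gestation, immature liver cells able to form hepatocytes and bile duct cells. Bulk RNA-seq libraries came from 6 groups of 2, formed by the labels wild type, Tnfrsf1α-/- or Tnfrsf1β-/- and by having had no treatment or TNFα for 1 hour. The labels name no knockout method, clone, dose or culture, so the spread between a pair of libraries may be technical, and p-values measure only that spread. Values are log2(FPKM + 1) throughout, and a difference is on that scale, which understates the change of low genes. FPKM is already per transcript length, so levels of different genes can be set side by side.

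DNA replication begins when the origin recognition complex (ORC), CDC6 and CDT1 load the MCM2-7 helicase onto chromosomes in G1, a step called licensing. In S phase CDC45 and the GINS complex turn the loaded helicase on, DNA polymerase alpha-primase lays down primers, and polymerases delta and epsilon extend them with the ring-shaped clamp PCNA, which replication factor C (RFC) opens and closes. Thymidylate synthase, thymidine kinase and ribonucleotide reductase make the deoxynucleotides, and many genes of this machinery are known targets of the E2F transcription factors, which become active as a cell commits to divide. TNFα is a cytokine that acts through 2 receptors, and in liver it is known to act on hepatocyte proliferation after injury.

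The letters of the promoters were compared first, because members that sit in the same complex moved apart in these data. RefSeq promoter windows of the rat build GRCr8, 250 bases before to 50 bases after the gene's start, were at hand for 40 of the 49 members. The core letters of E2F sites (TTCCCGC or TTGGCGC or TTCGCGC or TTGCCGC, on either strand, with overlapping matches counted once) stood in 27 of these 40 windows, 67.5%, and in 9.52% of 33465 rat promoter windows of the same length. A match is a run of letters and no evidence of binding. Shown are the MCM subunits whose RNA was over 4 log2 units higher with TNFα in wild type (Mcm2, Mcm5 and Mcm7), their partners that were not (Mcm3 and Mcm6), the gene of thymidylate synthase (Tyms), and that of the catalytic subunit of polymerase delta (Pold1), with the E2F letters in capitals. Each is written 5′ to 3′ along its gene.
Mcm2, chr4:122918045-122918344, minus strand: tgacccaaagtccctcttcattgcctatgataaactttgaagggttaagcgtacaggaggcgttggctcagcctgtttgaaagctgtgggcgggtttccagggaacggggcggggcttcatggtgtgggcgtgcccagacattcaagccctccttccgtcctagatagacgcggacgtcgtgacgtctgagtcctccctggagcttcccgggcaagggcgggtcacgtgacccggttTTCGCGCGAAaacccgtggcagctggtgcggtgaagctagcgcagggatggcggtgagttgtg
Mcm5, chr19:13488563-13488862, plus strand: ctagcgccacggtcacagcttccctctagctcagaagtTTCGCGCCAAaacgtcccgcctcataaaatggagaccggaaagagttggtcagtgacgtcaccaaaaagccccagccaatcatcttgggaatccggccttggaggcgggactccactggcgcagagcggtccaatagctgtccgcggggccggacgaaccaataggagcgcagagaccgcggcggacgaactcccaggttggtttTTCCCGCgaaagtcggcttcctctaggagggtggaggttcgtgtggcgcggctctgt
Mcm7, chr12:22163129-22163428, minus strand: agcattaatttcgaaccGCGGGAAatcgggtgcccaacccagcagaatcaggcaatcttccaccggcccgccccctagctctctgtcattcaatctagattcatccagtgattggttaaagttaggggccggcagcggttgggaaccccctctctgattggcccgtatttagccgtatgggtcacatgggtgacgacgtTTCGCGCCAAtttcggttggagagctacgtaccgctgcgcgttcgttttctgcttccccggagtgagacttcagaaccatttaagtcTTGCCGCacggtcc
Mcm3, chr9:30733697-30733996, minus strand: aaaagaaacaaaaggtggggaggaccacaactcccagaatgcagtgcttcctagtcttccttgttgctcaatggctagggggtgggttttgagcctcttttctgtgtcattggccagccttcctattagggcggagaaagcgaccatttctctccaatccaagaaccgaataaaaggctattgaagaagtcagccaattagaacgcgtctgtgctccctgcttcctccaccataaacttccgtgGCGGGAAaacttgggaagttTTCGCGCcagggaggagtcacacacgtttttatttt
Mcm6, chr13:42404303-42404602, minus strand: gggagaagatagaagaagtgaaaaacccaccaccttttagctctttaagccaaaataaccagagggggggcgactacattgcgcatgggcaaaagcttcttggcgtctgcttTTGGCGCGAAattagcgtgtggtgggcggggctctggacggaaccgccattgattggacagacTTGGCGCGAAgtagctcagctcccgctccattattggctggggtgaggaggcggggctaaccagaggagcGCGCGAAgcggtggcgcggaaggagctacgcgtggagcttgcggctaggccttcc
Tyms, chr9:120776034-120776333, minus strand: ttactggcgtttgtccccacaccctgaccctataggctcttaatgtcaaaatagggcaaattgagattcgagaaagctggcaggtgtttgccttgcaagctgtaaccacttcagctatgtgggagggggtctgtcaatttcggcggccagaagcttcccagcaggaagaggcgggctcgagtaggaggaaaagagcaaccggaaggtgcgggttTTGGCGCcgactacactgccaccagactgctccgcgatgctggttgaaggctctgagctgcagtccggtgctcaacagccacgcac
Pold1, chr1:104172933-104173232, minus strand: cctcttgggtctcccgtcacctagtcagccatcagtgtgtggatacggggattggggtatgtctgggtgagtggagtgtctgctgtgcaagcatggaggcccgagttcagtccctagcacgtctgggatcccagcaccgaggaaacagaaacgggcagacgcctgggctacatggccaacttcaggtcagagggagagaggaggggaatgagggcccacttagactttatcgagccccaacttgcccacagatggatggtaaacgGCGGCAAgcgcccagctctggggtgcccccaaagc

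All 7 of these windows hold the E2F letters, on both sides of the difference in response. In Pold1, however, the only match begins at base 16 after the annotated start, behind the letters ATG. It may therefore be coding sequence and not promoter, and it is counted in the shares given here. Among members with a window, the letters were in 6 of 9 (66.7%) of those over 4 log2 units higher with TNFα in wild type and in 21 of 31 (67.7%) of the others. The letters CCAAT, the core of NF-Y sites, on either strand, stood in 55.0% of the members' windows and in 37.5% of all windows. By the same split they were in 2 of 9 (22.2%) and in 20 of 31 (64.5%). TTTGAA, the core of cell cycle homology regions, stood in 3 of 40 windows (7.50%) and in 18.3% of all windows. These shares are descriptions, since the split follows the measured response.

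The libraries set several limits. Tnfrsf1a, the gene named by the label Tnfrsf1α-/-, was at 5.94 and 6.13 in the untreated and 5.65 and 5.95 in the treated libraries of that label, against 5.45 and 5.15 in untreated and 5.65 and 5.63 in treated wild type. It was therefore not lower under its own label, and with Tnfrsf1β-/- it was at 5.83 and 5.80 untreated and 4.85 and 4.71 treated. Tnfrsf1b was listed at 0 in untreated wild type and in all 4 libraries labelled Tnfrsf1β-/-, at 2.58 and 2.43 in treated wild type, at 0.03 and 0 in the untreated Tnfrsf1α-/- libraries, and at 0 and 4.09 in the treated ones. The groups are therefore named by their labels below. No read counts were at hand and the depth is unknown. The summed FPKM was 447554 to 472935 in the 4 untreated knockout-labelled libraries and 1071530 to 2085916 in the other 8, so the label and this total cannot be told apart there. The replicates of treated Tnfrsf1α-/- were the farthest apart, with 33.5% of tested genes differing by over 1 log2 unit between them, against 0.228% to 10.9% in the other 5 groups.

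Cell markers also moved with the groups. The 14 hepatocyte markers in the table summed to 4640 and 4760 FPKM in treated wild type, with none at 0, and to at most 1.16 FPKM in each of the other 10 libraries. The 13 progenitor and bile duct markers, led by Krt7 and Krt8, summed to 12000 to 14700 FPKM in untreated wild type, 43000 to 55900 in treated wild type, 26400 to 36000 in treated Tnfrsf1α-/- and 12900 to 14700 in treated Tnfrsf1β-/-, but to 373 to 500 in the 4 untreated knockout-labelled libraries. In untreated wild type 8 to 9 of these 13 were at 0, including Afp, Epcam and Krt19, which mark hepatic progenitors. The 12 mesenchymal markers summed to 2240 to 6780 FPKM over the libraries, but most of them fell with TNFα in wild type: their median level was 5.87 and 6.52 in untreated and 0.15 and 0.49 in treated wild type, against 4.57 to 7.21 in the other 8 libraries. Of the 9 that were tested 7 fell and 2 rose in wild type (median difference -4.69), 1 fell and 2 rose under Tnfrsf1α-/- (-0.63), and 2 fell and 2 rose under Tnfrsf1β-/- (-0.56). Erythroid markers (9) summed to 5.72 to 58.0 FPKM, macrophage markers (10) to 16.1 to 50.7 with Adgre1, C1qa and C1qb at 0 in all 12 libraries, and endothelial markers (9) to 0.617 to 23.1 with Emcn and Kdr at 0 in all 12. The part of cell makeup in the results below was not tested, and in bulk RNA fewer cells of a type and less RNA per cell cannot be told apart.

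A few replication genes stood at very high levels, and which ones did depended on the group. In both libraries of treated wild type 14 members lay above 9 log2 units: Orc1, Cdt1, Mcm2, Mcm5, Mcm7, Prim2, Pola2, Pold1, Rfc5, Fen1, Rnaseh2a, Tyms, Rrm1 and E2f1. In treated Tnfrsf1α-/- 13 of them did, with Orc1 at 7.60 and 6.98. In untreated wild type and in treated Tnfrsf1β-/- there were 3, Pola2, Pold1 and Rrm1, and in the untreated knockout-labelled libraries there were 0. Few members lay near this line: the highest member at or under 9 was at 6.89 to 8.51, depending on the library, and the lowest above 9 was at 9.05 to 11.92. The 14 genes were singled out after their values were seen. They held 89.9% to 95.7% of the members' summed FPKM in the 8 libraries other than untreated knockouts and 25.9% to 28.9% in those 4. All 49 members together made up 1.27% to 1.87% of the total FPKM in the 8 libraries and 0.244% to 0.367% in the 4.

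**Figure D1:**
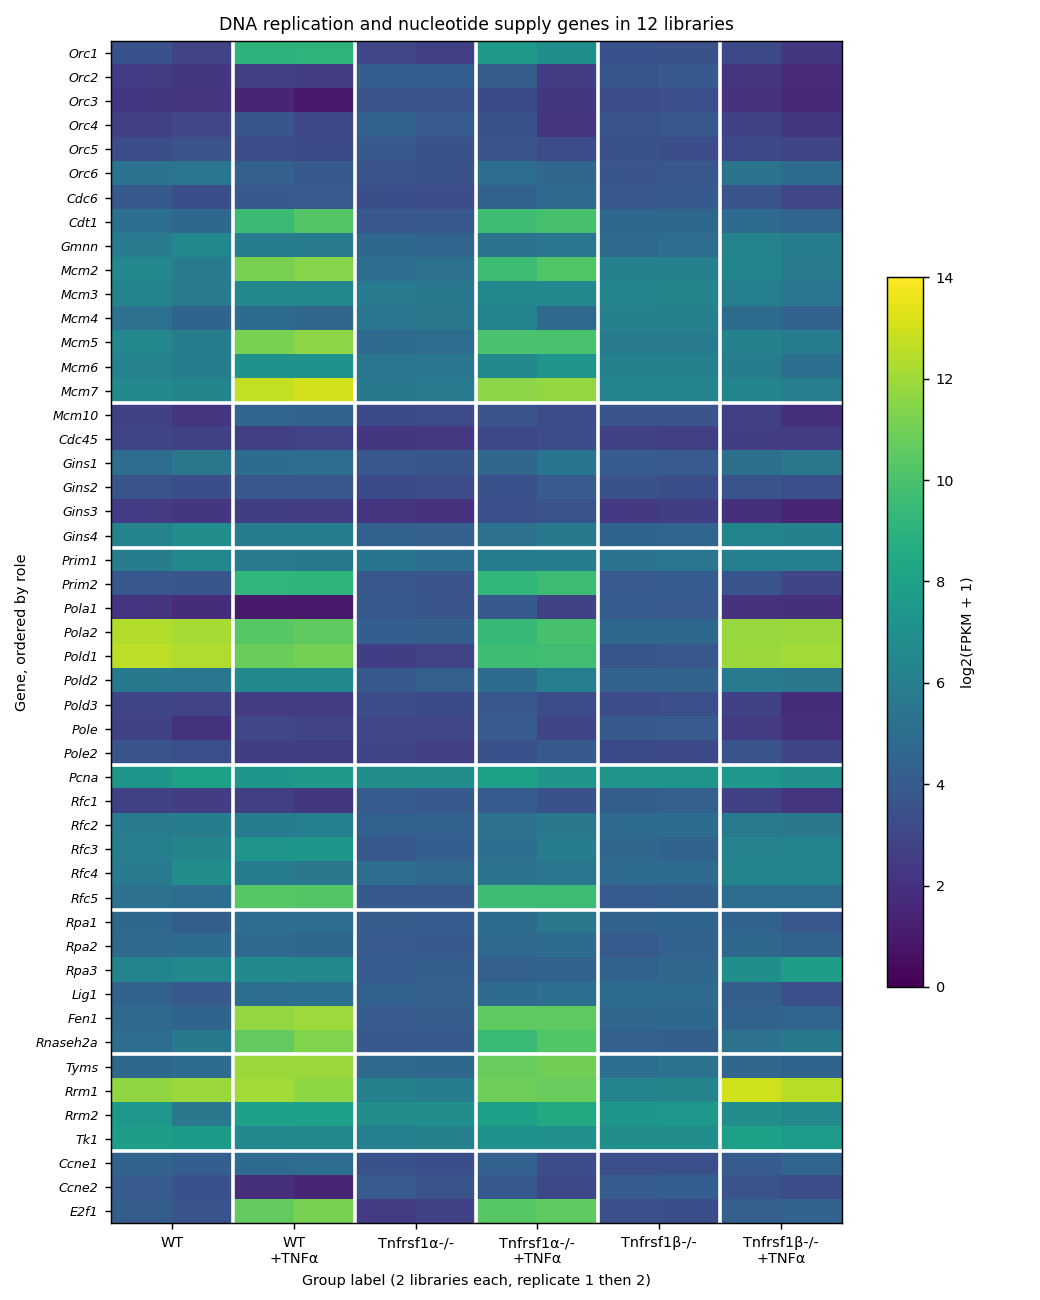
Levels of the 49 members (rows, ordered by role) in the 12 libraries (columns, by group), as log2(FPKM + 1) on a colour scale. The bright cells above 9 log2 units are 14 members in treated wild type, 13 of them in treated Tnfrsf1α-/-, 3 in untreated wild type and treated Tnfrsf1β-/-, and 0 in the untreated knockout-labelled libraries.

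With TNFα in wild type 16 members rose (32.7%) and 8 fell, while 31.9% of all tested genes rose and 15.3% fell (limma, Benjamini-Hochberg adjusted p under 0.05 over all 11860 genes). The members' count was thus near the background, and the median difference was 0.26 for the members and 0.32 for all genes. The size of the rises was not near it: 11 members (22.4%) were over 4 log2 units higher, against 4.68% of all tested genes. These were Orc1, Cdt1, Mcm2, Mcm5, Mcm7, Prim2, Rfc5, Fen1, Rnaseh2a, Tyms and E2f1. Nearest to this line stood Cdt1 inside it, with a difference of 4.99, and Mcm10 outside it, with 2.08. Called too were rises of Mcm10, Mcm6, Pold2, Rfc3 and Lig1, and falls of Ccne2, Pola2, Pold1, Orc6, Tk1, Pola1, Orc3 and Pole2. Of the 24 calls 17 held under every alternative run, and Orc3, Mcm6, Pola1, Pold2, Pole2, Rfc3 and Lig1 were lost under at least 1. Scaling the libraries to each other moved the median of all genes from 0.32 to -0.04 (median-ratio) or -0.06 (quantile), and the members' split from 16 higher and 8 lower to 12 and 13 or to 12 and 15.

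Under the label Tnfrsf1α-/- TNFα was followed by a rise of 29 members (59.2%) and a fall of 0, against 9.81% of all genes higher and 7.50% lower. The median difference was 1.08 for the members and -0.02 for all genes. The same 11 genes as in wild type rose, by 4.45 (Orc1) to 7.88 (E2f1), joined by Pold1 (6.96), Pola2 (5.43) and Rrm1 (4.84), so that 14 members (28.6%) were over 4 log2 units higher, against 3.62% of all genes. The other 15 rises were of 0.79 to 1.49 (Orc6, Cdc6, Mcm3, Mcm6, Cdc45, Gins1, Gins3, Gins4, Pold2, Pole2, Rfc2, Rfc3, Rpa1, Rpa2 and Tk1). All 15 lost their call when the spread was estimated from these 4 libraries alone, which left 14, and the count was 18 without either untreated Tnfrsf1α-/- library. This comparison shares no library with that in wild type. Of the members, 14 rose in both, which is 87.5% of those that rose in wild type and 48.3% of those that rose here, while over all genes 594 rose in both, 15.7% and 51.1%.

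Under the label Tnfrsf1β-/- 18 members rose with TNFα (36.7%) and 14 fell (28.6%), against 17.6% of all genes higher and 42.9% lower (60.5% in either direction). The median difference was -0.06 for the members and -0.66 for all genes. The largest rises were of Pold1 (8.20), Pola2 (7.16), Rrm1 (6.40) and Rpa3 (2.85), and the largest falls of Pola1 (-2.11), Orc2 (-1.93), Pole (-1.80), Rfc1 (-1.80), Orc3 (-1.51), Mcm4 (-1.44) and Mcm10 (-1.43). The 11 genes that were over 4 units higher in wild type differed here by -0.80 (Orc1) to 1.18 (Rnaseh2a): Rfc5, Rnaseh2a and E2f1 rose, Prim2 and Tyms fell, and 6 were not called. Median-ratio scaling moved the median of all genes from -0.66 to -0.03 and the members' split from 18 higher and 14 lower to 26 and 6, and it turned the fall of Tyms into a difference of 0.12. Without untreated Tnfrsf1β-/- replicate 2 the count was 21 in place of 32. Of these 32 calls 19 held under every alternative run, and among the genes named here Orc3, Mcm4, Rnaseh2a, Prim2 and Tyms were lost under at least 1.

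**Figure D2:**
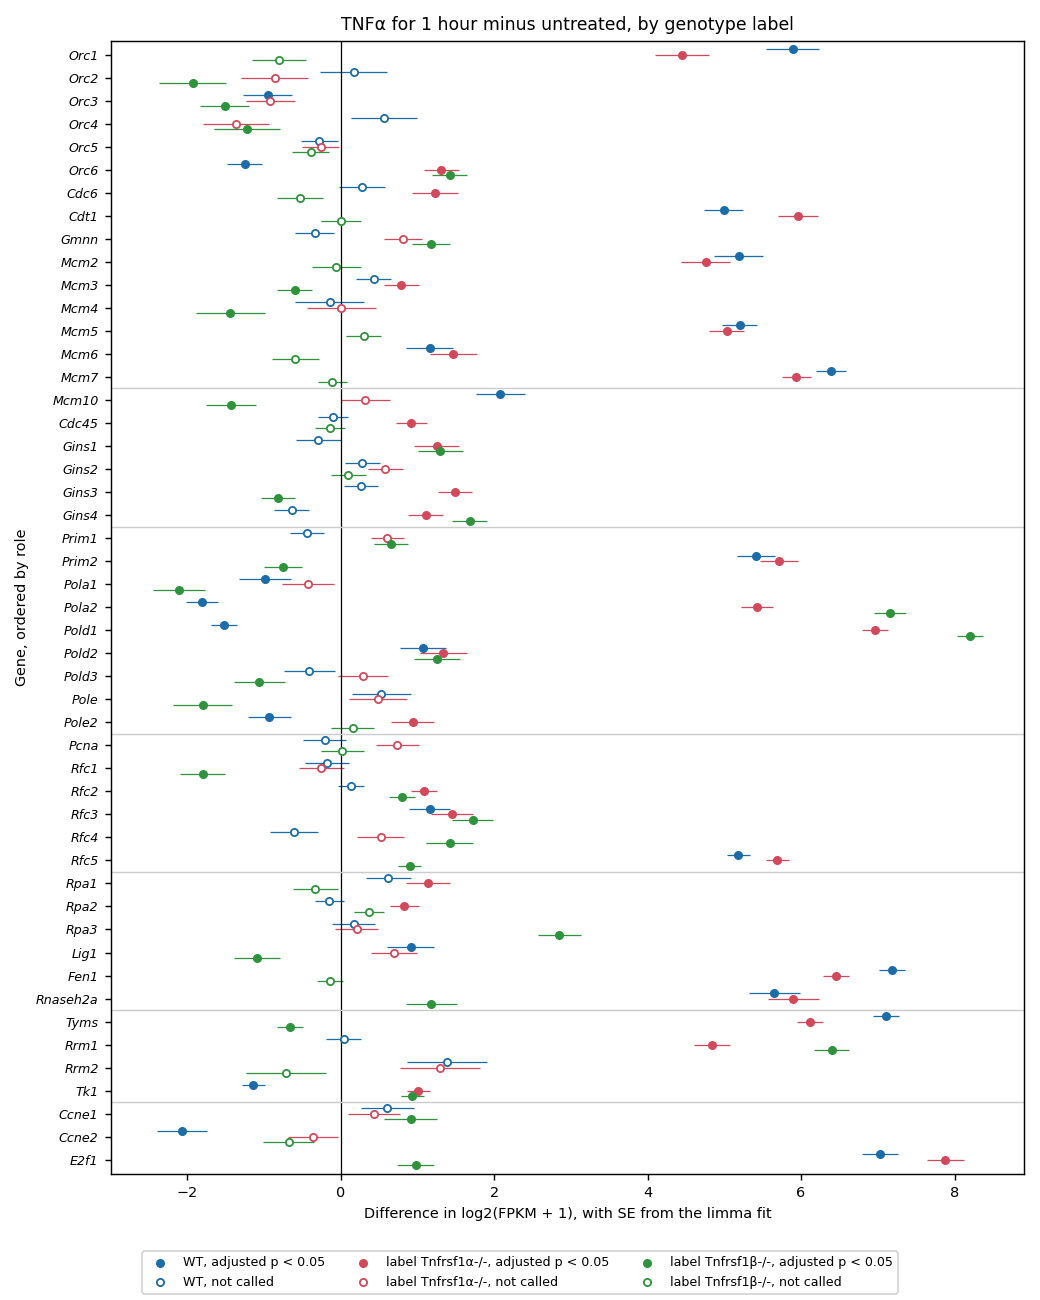
Difference of TNFα-treated minus untreated libraries in log2(FPKM + 1) for each member (rows, by role), with the SE of the limma fit, for wild type and for each knockout label; filled points passed an adjusted p of 0.05. Mcm2, Mcm5, Mcm7, Fen1, Tyms and E2f1 lie far to the right in wild type and under Tnfrsf1α-/-, and between -0.66 and 0.98 under Tnfrsf1β-/-, where Pold1 (8.20), Pola2 (7.16) and Rrm1 (6.40) lie farthest right.

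Licensing of origins split between subunits of the same complex. Of 15 licensing members (ORC, CDC6, CDT1, geminin and MCM2-7), 6 rose and 2 fell with TNFα in wild type, 9 rose and 0 fell under Tnfrsf1α-/-, and 2 rose and 5 fell under Tnfrsf1β-/-. The shares over all tested genes, which bear on the counts of every role, were 31.9% higher and 15.3% lower in wild type, 9.81% and 7.50% under Tnfrsf1α-/-, and 17.6% and 42.9% under Tnfrsf1β-/-. Orc1, the ORC subunit whose protein is known to be turned over through the cell cycle, stood at 3.55 and 2.85 in untreated and 9.05 and 9.12 in treated wild type, at 3.0 and 2.67 and then 7.60 and 6.98 under Tnfrsf1α-/-, and at 3.50 and 3.45 and then 3.11 and 2.25 under Tnfrsf1β-/-. The treated libraries of wild type and Tnfrsf1α-/- were high and all other 8 low, with a difference of 5.89 (SE 0.35, adjusted p = 1.62e-06) in wild type. Cdt1, the loader of the helicase, went from 5.10 and 4.75 to 9.56 and 10.27 in wild type, from 3.79 and 3.84 to 9.63 and 9.92 under Tnfrsf1α-/-, and stood at 4.75 and 4.70 and then 4.89 and 4.59 under Tnfrsf1β-/-. Geminin (Gmnn), the protein that inhibits CDT1, showed no such jump, with 5.84 and 6.54 in untreated and 5.89 and 5.79 in treated wild type, and was not called there. Cdc6, which acts with CDT1, was at 3.99 and 3.38 and then 3.92 and 4.02 in wild type.

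The remaining ORC subunits stayed low. Orc2 lay between 1.72 and 4.21, Orc3 between 0.99 and 3.68, Orc4 between 2.16 and 4.37 and Orc5 between 2.90 and 3.90 over the 12 libraries. Orc3 fell in wild type from 2.26 and 2.14 to 1.51 and 0.99 (difference -0.95, SE 0.32, adjusted p = 0.036), a call that was lost in 10 of 20 alternatives. Orc6, whose product brings ORC to DNA, moved in opposite directions: it fell in wild type from 5.35 and 5.47 to 4.32 and 3.99 and rose under Tnfrsf1α-/- from 3.58 and 3.46 to 5.04 and 4.63, and under Tnfrsf1β-/- from 3.67 and 3.79 to 5.36 and 4.94. The differences of Orc6 were -1.25 (SE 0.23) in wild type, 1.31 under Tnfrsf1α-/- and 1.42 under Tnfrsf1β-/-.

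The 6 helicase subunits, which form 1 ring, parted with TNFα. Mcm2 was at 6.50 and 5.70 in untreated and 11.11 and 11.47 in treated wild type, Mcm5 at 6.46 and 5.86 and then 11.19 and 11.55, and Mcm7 at 6.61 and 6.39 and then 12.73 and 13.06. Mcm3 stood at 6.30 and 5.79 and then 6.49 and 6.47, Mcm4 at 5.29 and 4.52 and then 4.90 and 4.62, and Mcm6 at 6.18 and 5.90 and then 7.18 and 7.21. Mcm2, Mcm5 and Mcm7 were thus above 11 in both treated wild-type libraries while Mcm3, Mcm4 and Mcm6 stayed under 8. The differences were 5.19 (SE 0.32, adjusted p = 1.93e-06) for Mcm2, 5.20 (SE 0.23, adjusted p = 1.87e-07) for Mcm5 and 6.39 (SE 0.19, adjusted p = 1.43e-08) for Mcm7. Those of Mcm3 (0.43) and Mcm4 (-0.14) were not called, and that of Mcm6 was 1.16 (SE 0.31, adjusted p = 0.0151), a call lost under both scalings.

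Under Tnfrsf1α-/- the same 3 subunits were high after TNFα, with Mcm2 at 9.66 and 10.19, Mcm5 at 9.96 and 9.98 and Mcm7 at 11.56 and 11.71, from 4.87 to 5.76 untreated. Mcm3, Mcm4 and Mcm6 were at 4.82 to 7.32 in these treated libraries. Under Tnfrsf1β-/- all 6 subunits lay between 4.41 and 6.39, treated or not. The distance from the highest to the lowest subunit was 1.33 to 1.87 log2 units in untreated wild type and 7.83 to 8.44 after TNFα, 0.74 to 0.83 and then 5.30 to 6.88 under Tnfrsf1α-/-, and 0.58 to 0.69 and then 1.39 to 1.59 under Tnfrsf1β-/-.

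**Figure D3:**
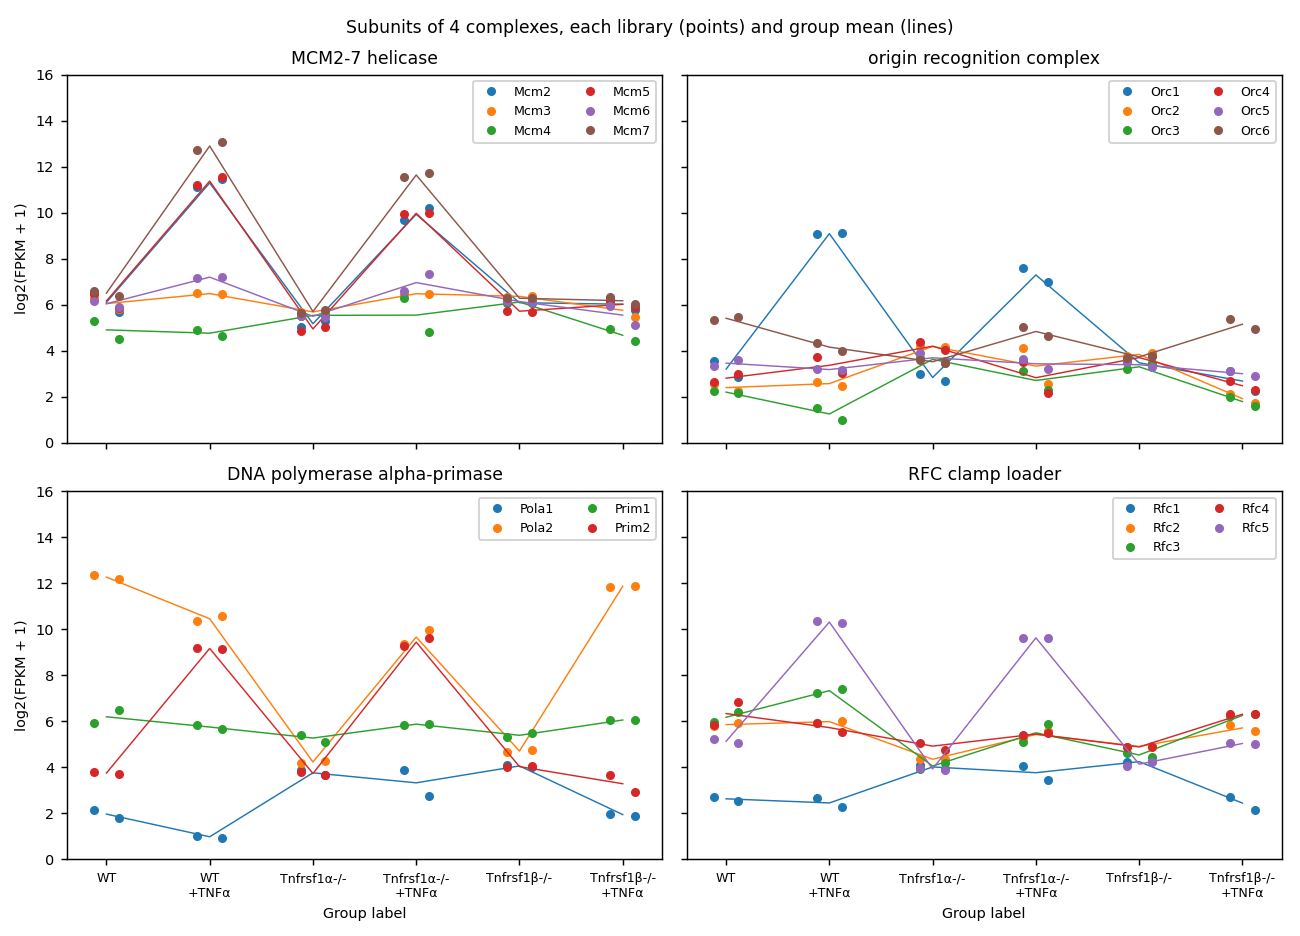
Level of each subunit of 4 replication complexes in log2(FPKM + 1) (vertical axis) in the 6 groups (horizontal axis), 1 panel per complex, with a point per library and a line through the group means. In the MCM2-7 panel Mcm2, Mcm5 and Mcm7 leave the other 3 subunits in treated wild type and treated Tnfrsf1α-/-, and Rfc5 and Orc1 leave their partners in the same groups.

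Factors that switch the helicase on differed by -0.64 (Gins4, not called) to 2.08 (Mcm10) with TNFα in wild type. Of 6 such members 1 rose in wild type, 4 under Tnfrsf1α-/- and 2 under Tnfrsf1β-/-, where 2 fell. Mcm10, a scaffold that binds the starting helicase, rose in wild type from 2.76 and 2.08 to 4.57 and 4.42 (difference 2.08, SE 0.32, adjusted p = 0.000852). It stood at 3.15 and 3.18 and then 3.68 and 3.28 under Tnfrsf1α-/-, and fell under Tnfrsf1β-/- from 3.69 and 3.69 to 2.63 and 1.89. Cdc45 lay between 2.20 and 3.31 over all 12 libraries. In the GINS complex, which joins CDC45 to the helicase, Gins4 was at 6.27 and 6.84 in untreated wild type and at 4.31 to 4.56 in the 4 untreated knockout-labelled libraries, and at 5.20 to 6.30 in all 6 treated libraries. Gins3 was at 2.13 and 1.98 and then 3.44 and 3.65 under Tnfrsf1α-/-, a rise of 1.49, and fell by 0.82 under Tnfrsf1β-/-, a call that quantile normalization turned into a difference of 0.27.

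The polymerases held both of the patterns. In wild type 2 of 9 primase and polymerase members rose with TNFα and 4 fell; under Tnfrsf1α-/- 5 rose and 0 fell, and under Tnfrsf1β-/- 4 rose and 4 fell. Over all tested genes these shares were 31.9% and 15.3%, 9.81% and 7.50%, and 17.6% and 42.9%. Prim2, the regulatory subunit of primase, followed the genes raised in wild type: it was at 3.79 and 3.72 and then 9.19 and 9.15 in wild type, at 3.80 and 3.67 and then 9.27 and 9.62 under Tnfrsf1α-/-, and at 4.01 and 4.06 and then 3.65 and 2.93 under Tnfrsf1β-/-. The difference was 5.41 (SE 0.25, adjusted p = 2.11e-07) in wild type and 5.71 under Tnfrsf1α-/-. Its partner Prim1, the catalytic subunit of primase, lay between 5.12 and 6.49 in all 12 libraries and was not called in wild type.

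Pola2, the second subunit of polymerase alpha, was already high in untreated wild type, at 12.37 and 12.17, and stood at 10.35 and 10.57 after TNFα. It was at 4.21 and 4.26 in untreated and 9.38 and 9.95 in treated Tnfrsf1α-/-, and at 4.68 and 4.74 in untreated and 11.84 and 11.90 in treated Tnfrsf1β-/-. Between the untreated groups the catalytic subunit Pola1 went the other way. It was at 2.15 and 1.79 in untreated wild type, 3.88 and 3.65 in untreated Tnfrsf1α-/- and 4.10 and 4.03 in untreated Tnfrsf1β-/-. With TNFα in wild type both fell (Pola2 -1.81, Pola1 -0.99), the call of Pola1 being lost in 12 of 20 alternatives. Under Tnfrsf1β-/- Pola1 fell (-2.11) while Pola2 rose (7.16), and under Tnfrsf1α-/- Pola1 was not called. In untreated wild type the lowest and the highest subunit of polymerase alpha-primase were 10.21 to 10.38 log2 units apart, and in the untreated knockout-labelled libraries 1.30 to 1.64.

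Pold1, the catalytic subunit of polymerase delta, had the same shape as Pola2. It was at 12.63 and 12.35 and then 10.87 and 11.06 in wild type, at 2.61 and 2.85 and then 9.64 and 9.72 under Tnfrsf1α-/-, and at 3.76 and 3.78 and then 11.90 and 12.04 under Tnfrsf1β-/-. All 4 untreated knockout-labelled libraries were below 4 and the other 8 above 9. Pold2, a second subunit, was at 3.97 to 4.44 in those 4 libraries and at 4.95 to 6.68 in the other 8, and Pold3, a further subunit, at 1.78 to 3.81 in all 12. For polymerase epsilon, which copies the leading strand, the catalytic subunit Pole was at 1.87 to 4.0 and Pole2 at 2.59 to 3.94. Pole2 fell in wild type (difference -0.93, SE 0.28, adjusted p = 0.0225), a call lost under at least 1 alternative, and Pole fell under Tnfrsf1β-/- from 3.99 and 4.0 to 2.51 and 1.87.

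Among the clamp and clamp loader genes Rfc5 alone of 6 moved by more than 4 units in wild type. Rfc5, a small loader subunit, was at 5.22 and 5.05 and then 10.36 and 10.27 in wild type, at 3.98 and 3.89 and then 9.64 and 9.62 under Tnfrsf1α-/-, and at 4.06 and 4.22 and then 5.06 and 5.02 under Tnfrsf1β-/-. Its difference was 5.18 (SE 0.15, adjusted p = 1.42e-08) in wild type and 0.90 under Tnfrsf1β-/-. Rfc3 rose in wild type by 1.16 and under Tnfrsf1β-/- by 1.72. Rfc1, the large subunit, was at 2.26 to 2.72 in wild type and 3.94 to 4.27 in the untreated knockout-labelled libraries, and fell with TNFα under Tnfrsf1β-/- to 2.73 and 2.17. Pcna, the clamp itself and a common marker of proliferating cells, lay between 6.89 and 8.01 in all 12 libraries and was called in none of the 3 TNFα responses, although quantile normalization gave a difference of -1.19 under Tnfrsf1β-/-.

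On the lagging strand 3 of 6 members rose with TNFα in wild type, 4 under Tnfrsf1α-/- and 2 under Tnfrsf1β-/-. Fen1, the nuclease that trims the flaps of Okazaki fragments, had the largest rise of any member in wild type: it went from 4.79 and 4.51 to 11.74 and 11.95, a difference of 7.19 (SE 0.17, adjusted p = 3.51e-09). Under Tnfrsf1α-/- it was at 4.02 and 4.11 and then 10.51 and 10.54, and under Tnfrsf1β-/- at 4.63 and 4.70 and then 4.47 and 4.56. Rnaseh2a, the catalytic subunit of the RNase H2 that removes ribonucleotides from DNA, was at 5.06 and 5.64 and then 10.66 and 11.35 in wild type, at 3.90 and 3.97 and then 9.47 and 10.20 under Tnfrsf1α-/-, and at 4.29 and 4.26 and then 5.26 and 5.64 under Tnfrsf1β-/-. Lig1, which seals the fragments, lay between 3.40 and 5.14. The single-strand binding subunits Rpa1 and Rpa2 lay between 3.82 and 5.54, whereas Rpa3, the smallest, was at 6.95 and 7.85 in treated Tnfrsf1β-/-, 6.30 to 6.68 in wild type and 4.06 to 4.63 in the other 6 libraries.

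In nucleotide supply, 1 of 4 members rose and 1 fell with TNFα in wild type. Tyms, thymidylate synthase, was at 4.71 and 4.87 and then 11.92 and 11.87 in wild type, at 4.80 and 4.67 and then 10.74 and 10.96 under Tnfrsf1α-/-, and at 5.12 and 5.33 and then 4.62 and 4.50 under Tnfrsf1β-/-. The wild-type difference was 7.11 (SE 0.17, adjusted p = 3.97e-09). Rrm1, the large subunit of ribonucleotide reductase, belonged to the other pattern: it was at 11.69 and 11.92 and then 12.07 and 11.61 in wild type, at 6.09 and 5.89 and then 10.90 and 10.77 under Tnfrsf1α-/-, and at 6.33 and 6.36 and then 13.01 and 12.49 under Tnfrsf1β-/-. Its small partner Rrm2 did not follow, with 5.53 to 8.51 over all libraries and replicates of untreated wild type 1.96 apart. Tk1, thymidine kinase, which salvages thymidine, fell in wild type from 7.81 and 7.65 to 6.54 and 6.64 and rose under Tnfrsf1α-/- from 6.07 and 6.13 to 7.14 and 7.08 and under Tnfrsf1β-/- from 6.92 and 6.87 to 7.93 and 7.74. Under quantile normalization the rises of Tk1 were not called, with a difference of 0.26 under Tnfrsf1α-/- and -0.14 under Tnfrsf1β-/-.

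Of the regulators of S phase entry, E2f1, the transcription factor that acts on many replication genes, was at 4.12 and 3.65 and then 10.65 and 11.18 in wild type. It was at 2.48 and 2.69 and then 10.35 and 10.58 under Tnfrsf1α-/-, and at 3.41 and 3.38 and then 4.28 and 4.46 under Tnfrsf1β-/-. The differences of E2f1 were 7.03 (SE 0.24, adjusted p = 3.03e-08), 7.88 and 0.98. Ccne2, a cyclin that drives CDK2, had the largest fall in wild type, from 4.0 and 3.54 to 1.86 and 1.53 (difference -2.07, SE 0.33, adjusted p = 0.00114), and lay between 3.01 and 4.17 under both knockout labels. Ccne1, its close relative, was at 3.32 to 4.98 in all libraries and not called in wild type.

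The difference between responses was tested directly with an interaction term. The response under Tnfrsf1β-/- differed from that in wild type for 35 members (71.4%), 14 higher and 21 lower, against 17.3% of all genes higher and 47.3% lower. All 11 genes raised by over 4 units in wild type responded less, by -4.28 (Rfc5) to -7.77 (Tyms), and Pold1 (9.72), Pola2 (8.97) and Rrm1 (6.36) responded more. The 11 were picked by the wild-type difference that both interactions subtract, so lower terms were favoured in advance. Scaling moved the split to 22 higher and 13 lower (median-ratio) or to 20 and 16 (quantile), and the median of all genes from -1.11 to -0.08 or -0.15. The response under Tnfrsf1α-/- differed for 19 members (38.8%), 15 higher and 4 lower, against 12.8% and 22.0% of all genes. Of the 11 genes Fen1 (-0.73) and Tyms (-0.99) were called lower, both lost under at least 1 alternative, and the other 9 differed by -1.44 (Orc1) to 0.96 (Cdt1) without a call. The terms of Pold1 (8.48), Pola2 (7.24), Rrm1 (4.81), Orc6 (2.57) and Tk1 (2.14) were higher. All of these but Rrm1 fell in wild type and rose under Tnfrsf1α-/-, so their terms join opposite directions. Scaling moved this split to 21 and 1 or to 23 and 1, and the count was 8 to 10 without either treated wild-type or either untreated Tnfrsf1α-/- library. Both interactions use the same wild-type libraries.

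Untreated cells were compared next. Without TNFα 26 members (53.1%) were lower and 5 higher in Tnfrsf1α-/- than in wild type, against 17.0% of all genes lower and 36.7% higher (53.7% in either direction), and the median difference was -0.74 for the members and 0.48 for all genes. In Tnfrsf1β-/- 17 members (34.7%) were lower and 7 higher, against 17.5% and 36.9% (54.4% in either direction), and the medians were -0.16 and 0.47. In each case Pold1, Pola2 and Rrm1 were over 4 log2 units lower, 3 of 49 (6.12%), where 1.40% and 1.45% of all genes were. For Pold1 the difference was -9.76 (SE 0.17, adjusted p = 6.36e-09) in Tnfrsf1α-/- and -8.72 in Tnfrsf1β-/-, for Pola2 -8.04 and -7.56, and for Rrm1 -5.81 and -5.46. Those 3 genes are the ones with a large rise on TNFα under both labels, and both comparisons and both responses rest on the same untreated libraries, whose summed FPKM is the lower as given above. Gins4 (-2.22 and -2.02), Rpa3 (-2.26 and -1.88), Rfc3 (-2.12 and -1.63) and Orc6 (-1.89 and -1.68) were lower in both, and Orc2 (1.79 and 1.45), Orc3 (1.42 and 1.10), Pola1 (1.79 and 2.09) and Rfc1 (1.38 and 1.61) higher in both, with Orc2, and Orc3 in Tnfrsf1β-/-, lost under at least 1 alternative. Median-ratio scaling moved the split in Tnfrsf1β-/- from 7 higher and 17 lower to 4 and 26, and the median of all genes from 0.47 to 0.03.

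**Figure D4:**
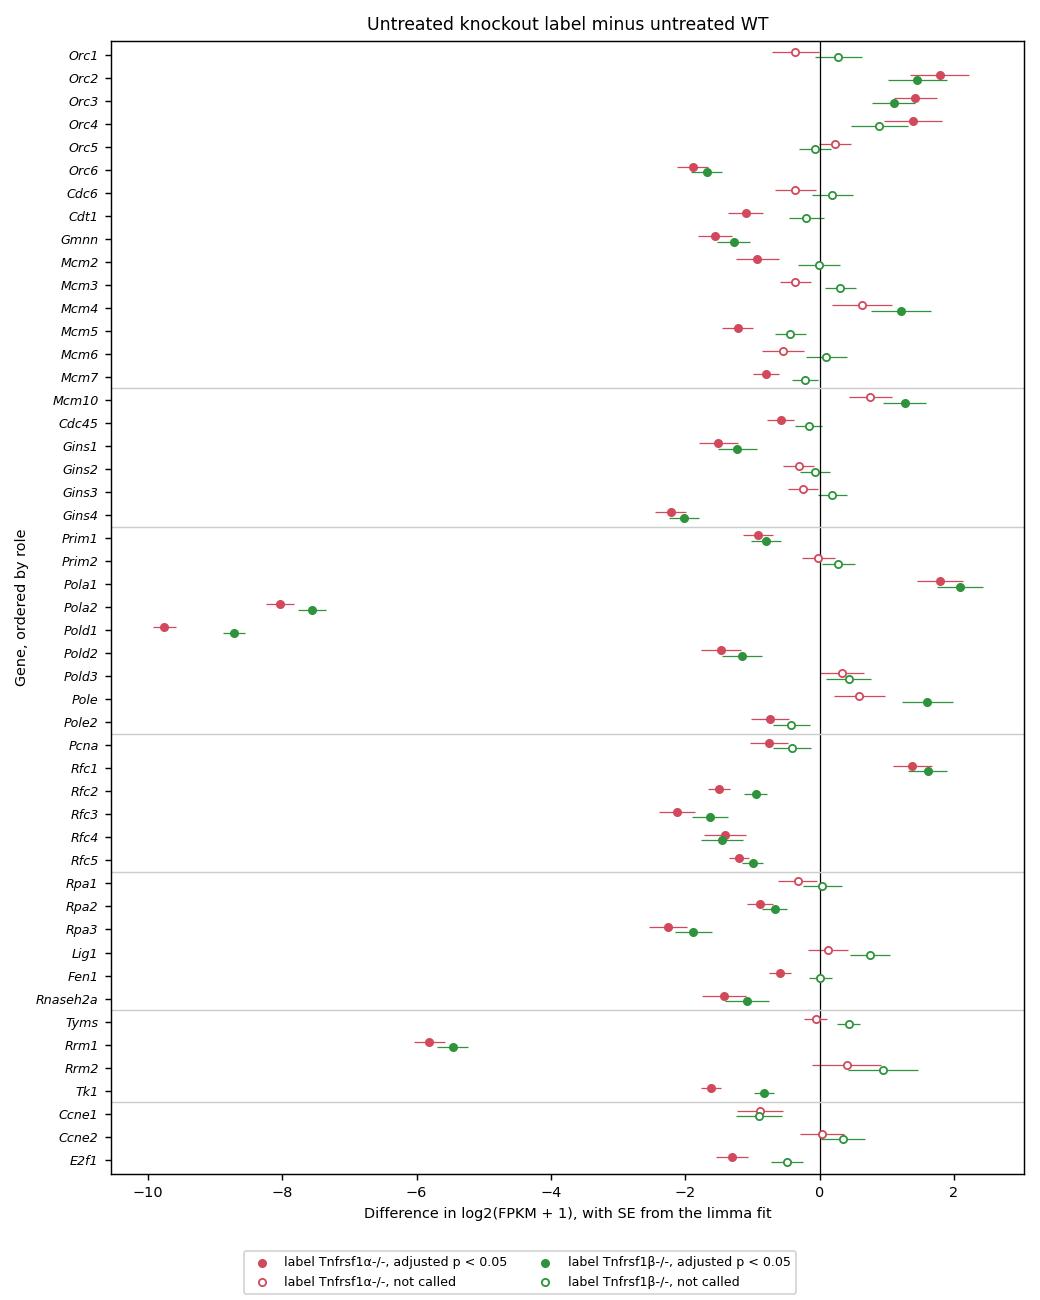
Difference of each untreated knockout label minus untreated wild type in log2(FPKM + 1) for the 49 members (rows, by role), with the SE of the limma fit; filled points passed an adjusted p of 0.05. Pold1 (-9.76 and -8.72), Pola2 (-8.04 and -7.56) and Rrm1 (-5.81 and -5.46) stand far to the left of the others, which lie between -2.26 and 2.09.

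After TNFα, the labels differed in their distance from wild type. In treated Tnfrsf1β-/- 19 members (38.8%) were lower and 8 higher than in treated wild type, against 36.3% and 14.7% of all genes (51.0% in either direction). The 11 genes were lower by -5.18 (Cdt1) to -7.34 (Tyms), and Ccne2 (1.74), Pola2 (1.41), Tk1 (1.24), Pold1 (1.00), Orc6 (0.99), Pola1 (0.97), Rrm1 (0.90) and Rpa3 (0.81) were higher, with Orc6, Pola1, Rrm1 and Rpa3 lost under at least 1 alternative. Because the 11 were picked for being high in treated wild type, lower values against it were favoured in advance under either label. Scaling moved the split from 8 higher and 19 lower to 14 and 13 (median-ratio) or 15 and 13 (quantile), and the median of all genes from -0.41 to 0.14 or 0.05. In treated Tnfrsf1α-/- 17 members (34.7%) were lower and 9 higher, against 22.4% and 22.7% (45.2% in either direction). Of the 11 genes 8 were lower there, by -0.69 (Rfc5) to -1.80 (Orc1), while Cdt1 (-0.14), Prim2 (0.28) and E2f1 (-0.45) were not called, and Mcm2, Rfc5 and Rnaseh2a were lost under at least 1 alternative. With the spread taken from these 4 libraries alone 8 of the 26 calls were made, all of them lower, and the count was 17 and 13 without treated wild-type replicate 1 and 2.

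The treated Tnfrsf1β-/- libraries lay nearer to untreated wild type over the members than to any other treated group, from which they differed by a mean of 1.75 to 2.12 log2 units per member. Their replicate 1 differed from untreated wild-type replicate 1 by a mean of 0.27 and from replicate 2 by 0.31, and their replicate 2 by 0.58 and 0.42, against 0.41 between the untreated wild-type replicates and 0.39 between the treated Tnfrsf1β-/- replicates. The distances between subunits, which come from the same values and add no separate evidence, were alike in these 2 groups for the complexes below. For polymerase delta the highest and lowest subunit were 9.50 to 9.69 units apart in untreated wild type and 9.15 to 10.26 in treated Tnfrsf1β-/-, but 1.01 to 1.21 in untreated Tnfrsf1β-/-. For ribonucleotide reductase the distances were 4.20 to 6.39, 5.90 to 6.10 and 1.09 to 1.12. RFC ran from 3.24 to 4.30 in untreated wild type to 7.71 to 8.02 after TNFα and stood at 3.57 to 4.15 in treated Tnfrsf1β-/-. The single-strand binding complex RPA stayed together, with 0.10 to 2.32 units between its subunits in all groups except treated Tnfrsf1β-/-, where Rpa3 set it at 2.47 to 4.03.

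**Figure D5:**
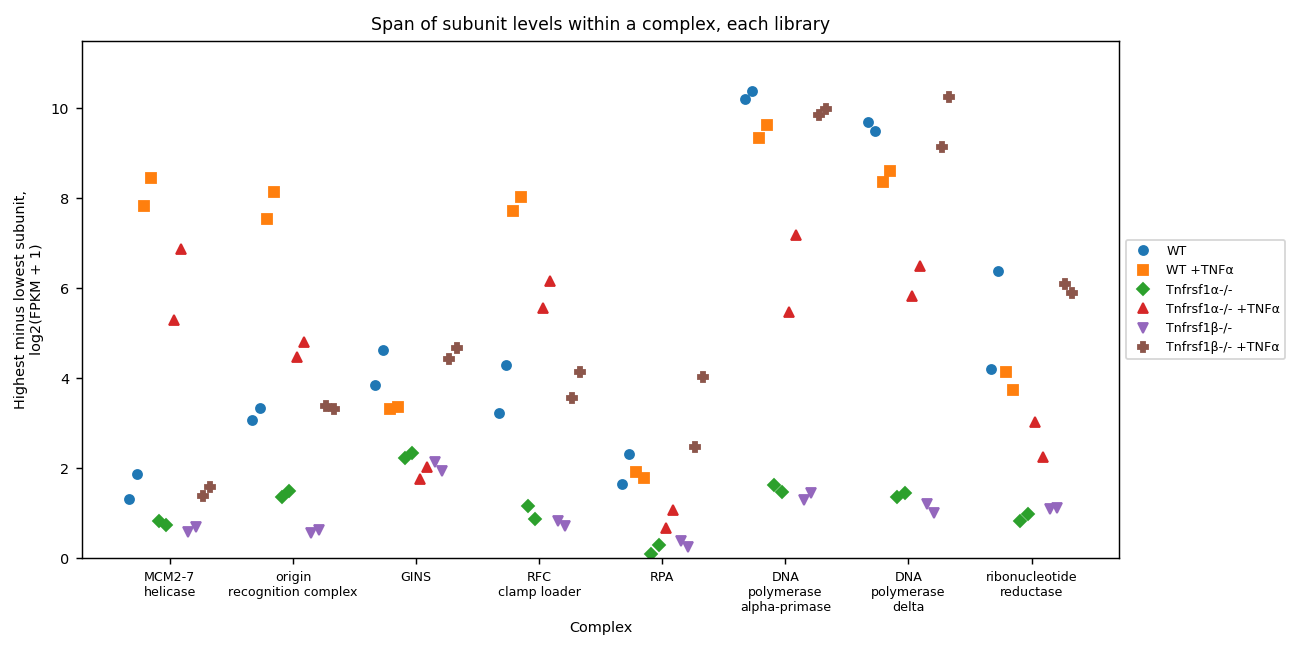
Distance in log2(FPKM + 1) from the highest to the lowest subunit (vertical axis) in 8 replication complexes (horizontal axis), with 1 point per library and the 6 groups told by colour and shape. In every complex but GINS the untreated knockout-labelled libraries have the smallest distances, and over all 8 these are 0.10 to 2.33, while MCM2-7 reaches 7.83 to 8.44 in treated wild type and polymerase alpha-primase 10.21 to 10.38 in untreated wild type.

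Other genes of the pathway were counted over whole lists, which like the members were drawn up with earlier results known. Over all tested genes 31.9% rose and 15.3% fell in wild type (median 0.32), 9.81% and 7.50% under Tnfrsf1α-/- (-0.02), and 17.6% and 42.9% under Tnfrsf1β-/- (-0.66), and the lists' counts stand beside these. Among 12 further licensing and firing factors 3 rose and 0 fell with TNFα in wild type (median 0.48), 1 rose and 1 fell under Tnfrsf1α-/- (0.04), and 0 rose and 9 fell under Tnfrsf1β-/- (-1.40). Recql4, a helicase that acts in origin firing, went from a mean of 2.32 to 10.40 in wild type and from 2.07 to 10.39 under Tnfrsf1α-/-. Of 11 fork protection and checkpoint genes 5 rose and 2 fell in wild type (0.59), 4 rose under Tnfrsf1α-/- (0.17), and 1 rose and 8 fell under Tnfrsf1β-/- (-0.94). Hus1, a subunit of the checkpoint clamp, rose from a mean of 0.73 to 8.87 in wild type and from 2.43 to 8.79 under Tnfrsf1α-/-. Wee1, a kinase that inhibits CDK1, was at a mean of 10.21 in untreated wild type, 3.48 in untreated and 8.49 in treated Tnfrsf1α-/-, and 4.01 and then 10.09 under Tnfrsf1β-/-. Of 11 genes for chromatin assembly and methylation at the fork 3 rose and 1 fell in wild type (0.53), led by Uhrf1, which brings the maintenance methyltransferase to new DNA (difference 6.19), and by the histone chaperone Asf1b (4.24). Of 10 further polymerase, clamp loader and lagging-strand genes 1 rose and 2 fell in wild type (-0.25), the riser being Pold4, the small subunit of polymerase delta (3.0).

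Against the same shares and medians over all genes, nucleotide supply outside the members gave 12 rises and 2 falls among 26 genes in wild type (median 0.83), 5 and 1 under Tnfrsf1α-/- (0.60), and 7 and 5 under Tnfrsf1β-/- (-0.21). Dut, the enzyme that keeps uracil out of DNA, was at a mean of 11.23 in untreated wild type, 5.59 in untreated Tnfrsf1α-/- and 5.74 in untreated Tnfrsf1β-/-, and rose with TNFα to 9.70 and 11.75 under those labels, as Pold1, Pola2 and Rrm1 did. Of 24 genes of G1 to S control 10 rose and 1 fell in wild type (0.48), 8 rose and 1 fell under Tnfrsf1α-/- (0.10), and 3 rose and 14 fell under Tnfrsf1β-/- (-0.91). Mybl2, a transcription factor of cycling cells, rose by 7.02 in wild type and 6.29 under Tnfrsf1α-/-, and Skp2, which marks CDK inhibitors for destruction, by 5.58 and 5.44. Ccnd1, the cyclin of G1, had the smallest p of this list under both knockout labels: its mean was 10.99 in untreated wild type, 6.37 in untreated and 14.01 in treated Tnfrsf1α-/-, and 7.02 and then 10.70 under Tnfrsf1β-/-. Of 23 mitosis genes 9 rose and 7 fell in wild type (0.13), 12 rose and 1 fell under Tnfrsf1α-/- (1.18), and 6 rose and 9 fell under Tnfrsf1β-/- (-0.04). Ccnb1, the mitotic cyclin, rose by 6.36 in wild type and 4.71 under Tnfrsf1α-/-. Ube2c, a ubiquitin enzyme of mitotic exit, was at a mean of 13.14 in untreated wild type. It rose by 7.94 under Tnfrsf1β-/- from a mean of 4.57 to 12.51, and by 5.94 under Tnfrsf1α-/- from 4.45 to 10.38.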

How the data were processed

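RNA was measured in 12 libraries of rat hepatic progenitor cells, 2 per group, made from 1 ug of total RNA with an Illumina TruSeq kit, per the labels' protocols. The authors deposited 1 table of FPKM values; that these are log2(FPKM + 1) was inferred from the deposited values, since the log2 scale and its base are not stated, and another base would change every fold. The sources used here do not give the aligner, the genome build or the scaling between libraries. Since FPKM is relative within a library, a few very abundant genes can lower all others, and whether they did so here was not tested.

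Of 22730 lines 346 had no symbol and were left out, and 1835 lines sharing a symbol were kept apart. The 11860 genes whose FPKM averaged 1 or more over the libraries entered a limma fit (version 3.58.1, R 4.3.3) of 6 group means on the deposited scale, whose pseudocount is 1, with all 12 libraries, a trended prior and no block. P-values are two-sided and Benjamini-Hochberg adjusted over all tested genes within each of 9 contrasts, with a threshold of 0.05. The fit was also run on simulated data in which all groups shared the same spread. Because the groups here differ in spread, that run cannot show how the fit handles the difference. Alternatives were a pseudocount of 0.1, no filter, median-ratio scaling, quantile normalization, only the groups compared, a replicate block, and leaving out libraries.

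The members and lists were chosen with earlier results of these data known. Levels in every library are given for many of the members among the 8 largest called rises or falls of a contrast. Others of these members are given in part or by ranges or differences, and Rfc4 only within counts, distances and figures. Levels are also given for some partners of these members, chosen after the values were seen. Up to 3 genes per contrast are named from each other list, by smallest p. Promoter windows are from RefSeq, build GRCr8, and those of 9 members were not analysed here.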

Additional observations from a re-analysis of the deposited data

Results flagged for a closer look

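The interaction terms of the limma fit marked members whose response to TNFα differed between a knockout label and wild type. For the label Tnfrsf1α-/- there were 19. Of the 8 with the largest differences, the term was higher for Pold1 (8.48), Pola2 (7.24), Rrm1 (4.81), Orc6 (2.57), Tk1 (2.14) and Pole2 (1.87). All of these but Rrm1 fell in wild type and rose under this label. The term was lower for Orc4 (-1.93) and Mcm10 (-1.76), and neither call held under every alternative run. The mean of Orc4 went from 2.81 to 3.37 in wild type and from 4.2 to 2.83 under this label, with no call in either. For the label Tnfrsf1β-/- there were 35. The 8 with the largest differences were Pold1 (9.72), Pola2 (8.97) and Rrm1 (6.36), which responded more, and Tyms (-7.77), Fen1 (-7.33), Orc1 (-6.69), Mcm7 (-6.51) and Prim2 (-6.15), which responded less. Pold1, Pola2 and Rrm1 have their difference in the untreated libraries of both labels, whose summed FPKM was also lower, and the part of that total was not tested.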

How the results depend on the processing

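In wild type and under Tnfrsf1α-/- the 11 large rises held under every alternative run, as did the differences of Pold1, Pola2 and Rrm1 between untreated labels and wild type. Over all alternatives 17 of 24 calls held for TNFα in wild type, 14 of 29 under Tnfrsf1α-/-, 19 of 32 under Tnfrsf1β-/-, 7 of 19 and 22 of 35 for the interactions of Tnfrsf1α-/- and Tnfrsf1β-/-, 21 of 31 and 13 of 24 untreated, and 8 of 26 and 17 of 27 treated. With the spread from only the groups compared, 14 members were called under Tnfrsf1α-/-, 11 in its interaction and 8 in its treated comparison with wild type. Leaving out 1 library gave counts of 18 to 35 for Tnfrsf1α-/-, 21 to 34 for Tnfrsf1β-/-, 8 to 25 for the interaction of Tnfrsf1α-/-, and 13 to 28 for treated Tnfrsf1α-/-. The cause was not tested, beyond the fewer libraries in these fits.

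Scaling reversed some differences, called ones among them. Under median-ratio scaling the TNFα difference in Tnfrsf1β-/- became 0.19 for Mcm3, 0.68 for Mcm7, 0.54 for Cdc45, 0.63 for Fen1 and 0.12 for Tyms, its interaction 1.04 for Orc5, 0.24 for Mcm3, 1.05 for Cdc45 and 1.00 for Gins2, and the untreated difference of Fen1 -0.53. Under quantile normalization the TNFα difference in Tnfrsf1β-/- became 0.93 for Cdc45, 0.27 for Gins3, -1.19 for Pcna and -0.14 for Tk1, its interaction 1.23 for Orc5, 1.48 for Cdc45, 1.18 for Gins2 and 0.48 for Gins3, and the untreated difference -0.79 for Gins3, 0.86 for Pcna and 0.20 for Tk1, with 0.21 for Pcna in Tnfrsf1α-/-. The cause was not tested.

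The labels do not say that a replicate number marks a shared culture or day, so the numbers were not taken as pairing: the correlation of same-numbered deviations was -0.17 to 0.24, and above 0.1 in 9 of 15 pairs of groups, among them all 6 between untreated wild type and the 3 treated groups (0.15 to 0.24). With the replicate block 25 members were called in wild type, 31 under Tnfrsf1α-/- (29 higher, and Orc3 and Orc4 lower), 33 under Tnfrsf1β-/-, 20 and 37 in the interactions, 30 and 24 untreated, and 26 and 27 treated. Depth is unknown, so its limits cannot be stated.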
